A study of Mus musculus with 8 samples.

Results

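Myeloid C-type lectin receptors are membrane proteins of macrophages, monocytes, dendritic cells and neutrophils that carry an extracellular C-type lectin domain. The genes described here are the DCIR relatives Clec4a1, Clec4a2 and Clec4a3, the DCIR-cluster activating receptors Clec4d, Clec4e and Clec4n, the genes Clec7a, Clec9a and Clec12a of the Dectin cluster, and Clec10a. Each was taken from the deposited array values by its gene symbol in the platform annotation. Of the 10 genes 9 had a named probe, each a single one, among 19505 named genes on 22206 probes. Clec7a, which encodes the beta-glucan receptor Dectin-1, had none and was not analysed here.

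Kidney RNA came from NZBWF1 mice, the NZB by NZW hybrid, in which a lupus-like autoimmune disease with nephritis develops with age. There were 4 mice at 8 weeks of age and 4 at 28 weeks, with 1 Clariom S Mouse array for each mouse. All 8 carry the same strain label, no treatment is given, and no mouse of an unaffected strain was part of the series, so age is the only contrast and a change of normal ageing cannot be told apart from one of disease. Values are log2 expression after robust multi-array averaging (RMA). On this scale a difference of 1 is a 2-fold difference. Kidney tubule and podocyte markers bore out the labelled tissue: the mean over 9 of them lay between 15.49 and 15.81 on the 8-week arrays and between 15.39 and 15.69 on the 28-week arrays. None of the 9 passed the threshold used below, 4 had an unadjusted p under 0.05 (limma), and the 3 with the smallest p, Slc12a1, Slc34a1 and Slc12a3, had log2 differences of 0.99, -0.57 and -0.68. Without 28-week replicate 7, described next, Slc12a3 was called lower (limma adjusted p = 0.0387). For the lectin genes a single array stood apart from its age group. On 28-week replicate 7 the mean over the 9 lectin genes was 4.89, within the 4.68 to 5.02 of the 8-week arrays, while on 28-week replicates 6, 8 and 9 it was 7.32, 6.94 and 6.68. Differences and counts of calls are therefore given with and without that array where it changes them. The array was singled out by the values of these same genes. Leaving it out raises their differences by construction. P-values and counts without it are thus descriptive and are no test of a difference between the ages. Whole-kidney RNA cannot tell more cells of a type from more RNA per cell.

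The receptors fall into groups by how they signal. Mincle (Clec4e), its partner MCL (Clec4d) and Dectin-2 (Clec4n) have no activating motif of their own and pair with the Fc receptor gamma chain, which recruits the kinase Syk and, through CARD9, NF-kappa-B. Dectin-1 and DNGR-1 (Clec9a) engage Syk through a motif in their own tail. DCIR (Clec4a2) and MICL (Clec12a) carry an inhibitory motif that recruits the phosphatases SHP-1 and SHP-2. MGL1 (Clec10a) binds galactose-type sugars, and DNGR-1, a receptor for exposed actin filaments on dead cells, is known as a marker of cross-presenting dendritic cells. In kidney such receptors are known from resident macrophages and dendritic cells and from infiltrating monocytes.

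Promoters of genes with the larger differences are shown first. Clec4a1, Clec4a3, Clec4e and Clec12a were high in the same mice, and whether they share regulation was not tested. RefSeq promoter windows, from 250 bases before to 50 bases after an annotated start, were available for 8 of the 10 genes in 10 windows on GRCm38.p6. Clec4n and Clec10a had none. The windows were searched on both strands for the letters GAGGAAGT (PU.1), TTGCNNAA (C/EBP), GGAANNGAA (an ETS-IRF composite) and TGANTCA (AP-1). The 250 upstream bases are printed for the genes that were at least 3-fold higher on average and held a match, with matches in capitals. This leaves out Clec4a3, which was 7.22-fold higher but held no match. They lie at chr6:122921598-122921847 on the plus strand for Clec4a1, chr6:123289872-123290121 on the minus strand for Clec4e, and chr6:129349994-129350243 on the plus strand for Clec12a.
Clec4a1: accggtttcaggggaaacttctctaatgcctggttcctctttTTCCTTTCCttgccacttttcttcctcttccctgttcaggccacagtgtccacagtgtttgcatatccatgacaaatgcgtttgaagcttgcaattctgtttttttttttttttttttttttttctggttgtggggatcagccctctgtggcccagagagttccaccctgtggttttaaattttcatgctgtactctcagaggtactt
Clec4e: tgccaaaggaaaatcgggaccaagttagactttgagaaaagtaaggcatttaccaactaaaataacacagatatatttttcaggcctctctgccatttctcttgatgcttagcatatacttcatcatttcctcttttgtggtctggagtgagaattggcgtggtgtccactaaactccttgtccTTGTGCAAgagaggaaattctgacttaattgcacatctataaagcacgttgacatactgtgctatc
Clec12a: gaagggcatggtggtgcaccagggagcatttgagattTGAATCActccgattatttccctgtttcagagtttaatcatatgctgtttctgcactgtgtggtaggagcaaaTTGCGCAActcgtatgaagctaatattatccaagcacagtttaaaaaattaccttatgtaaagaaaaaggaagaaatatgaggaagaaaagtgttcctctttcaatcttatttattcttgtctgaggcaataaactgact
The capitals mark an ETS-IRF match in Clec4a1 that begins 208 bases before the start, a C/EBP match in Clec4e 66 bases before it, and in Clec12a an AP-1 match 213 bases and a C/EBP match 140 bases before it. The C/EBP match of Clec12a, TTGCGCAA, reads the same on both strands. Clec4a2 held an AP-1 match, TGACTCA, that begins 31 bases after its start, and both windows of Clec7a held the ETS-IRF match TTCATTTCC. No window of Clec4a3, Clec4d or Clec9a held any of these motifs. Over all 32851 promoter windows of this length, 3.2% held the PU.1 letters, 10.8% the C/EBP, 8.24% the ETS-IRF and 7.81% the AP-1 letters. The lectin windows held them in 0, 2, 3 and 2 of 10. The 2 windows of Clec7a overlap, and the same ETS-IRF site is counted in both. These matches are letters in a window and were not tested for binding.

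The comparison of the ages asks whether these receptors differ between young kidneys and those of mice at the age of nephritis. All 9 measured genes had a higher mean at 28 weeks, from 0.17 for Clec9a to 3.44 for Clec4a1 on the log2 scale. None of the 9 passed an adjusted p of 0.05 (limma, Benjamini-Hochberg over all probes), while 6 had an unadjusted p under 0.05. Of all probes 0.446% were called higher after adjustment, and 15.0% had an unadjusted p under 0.05 in either direction, the share beside which the unadjusted counts given here stand. The median difference of the 9 was 1.13, against -0.01 for all probes, and 5 of the 9 were at least 2-fold higher where 2.31% of all probes were. Without 28-week replicate 7 the median was 1.67, against -0.02 for all probes. In that comparison 6 of the 9 passed the threshold, against 3.63% of all probes called higher. The array was set aside because these same genes were low on it, so the count of 6 is descriptive.

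**Figure D1:**
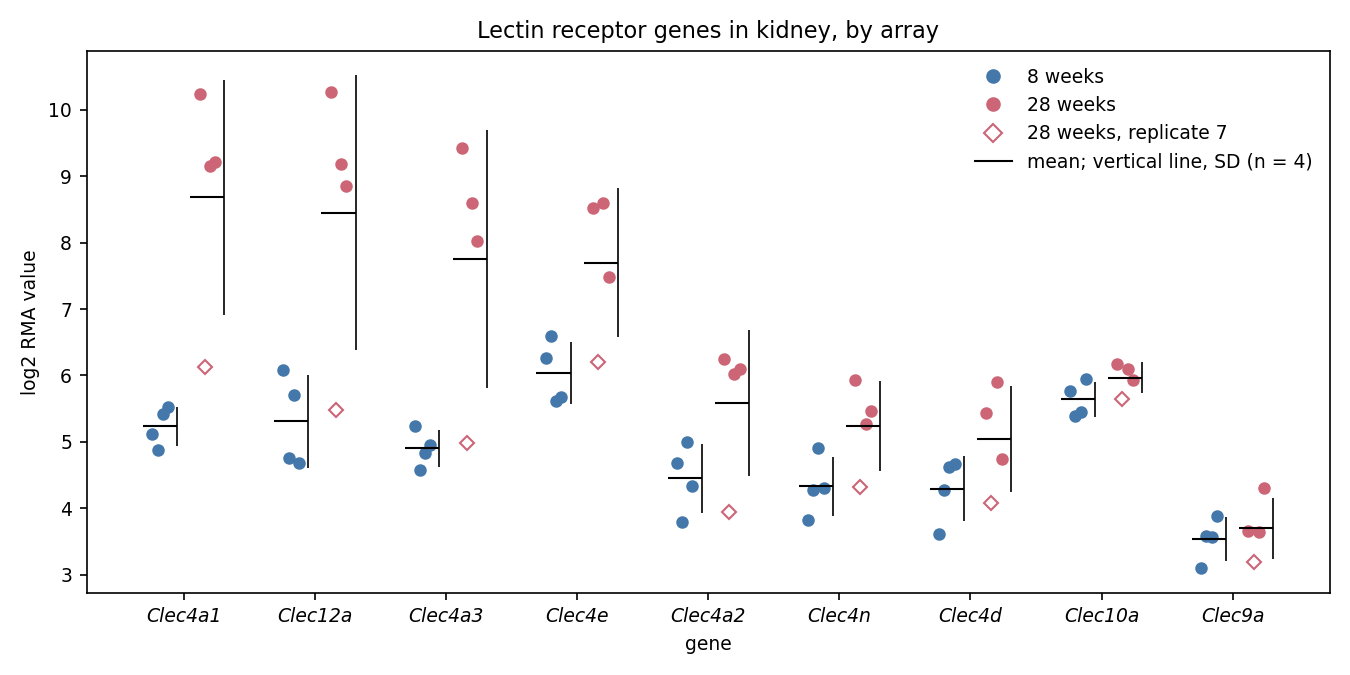
Log2 RMA values of the 9 measured lectin receptor genes on each array, ordered by the difference between the ages, with 8-week mice in blue and 28-week mice in red. Horizontal lines are means and vertical lines SDs (n = 4). The open diamonds, 28-week replicate 7, lie within the range of the 8-week points for 8 of the 9 genes, the exception being Clec4a1.

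Clec4a1, a DCIR relative, had the largest mean difference. It was 5.12, 4.88, 5.42 and 5.53 on 8-week replicates 1 to 4, and 10.23, 6.13, 9.15 and 9.22 on 28-week replicates 6 to 9. Every 28-week array lay above every 8-week array, although replicate 7 was closer to the young mice than to the other old ones. Clec4a1 was the only 1 of the 9 with such separation, which 4.38% of all probes showed. The means were 5.24 ± 0.29 and 8.68 ± 1.77 (SD, n = 4 each), which is 10.9-fold (log2 difference 3.44 ± 0.70 SE, limma adjusted p = 0.0554). The exact two-sided permutation test over 70 arrangements gave p = 0.0286, the smallest it can give. Without replicate 7 the fold was 19.6 (limma adjusted p = 8.42e-05).

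Clec4a3, its neighbour in the cluster, gave a like pattern over the mice. It was 5.24, 4.58, 4.84 and 4.95 on the 8-week arrays and 9.43, 4.98, 8.59 and 8.02 on 28-week replicates 6, 7, 8 and 9. Replicate 7 fell among the young mice, and the other 28-week arrays stood clear above them. The log2 difference was 2.85 ± 0.76 SE, 7.22-fold (limma adjusted p = 0.107), and 3.78 without replicate 7 (limma adjusted p = 0.000257).

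Clec4a2, which encodes the inhibitory receptor DCIR, differed less. Its values were 4.69, 3.79, 5.0 and 4.33 on the 8-week arrays and 6.25, 3.94, 6.03 and 6.10 on the 28-week arrays. Replicates 6, 8 and 9 lay close together, with an SD of 0.11, and replicate 7 sat near the bottom of the young range. The log2 difference was 1.13 ± 0.48 SE, 2.18-fold (limma adjusted p = 0.303), and 1.67 without replicate 7 (limma adjusted p = 0.00598). The related Clec4a4, which is no member of the set, was 4.6 ± 0.24 at 8 weeks and 4.32 ± 0.39 at 28 weeks (n = 4 each, log2 difference -0.28, limma adjusted p = 0.62). The DCIR genes resemble each other in sequence and their probes could cross-react, which leaves each single difference uncertain.

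The inhibitory receptor gene Clec12a had the second largest difference. It was 6.09, 4.76, 5.71 and 4.68 on the 8-week arrays and 10.27, 5.48, 9.19 and 8.85 on the 28-week arrays. Replicates 6, 8 and 9 stood well above all young mice, and replicate 7 lay between them. The log2 difference was 3.14 ± 0.85 SE, 8.8-fold (limma adjusted p = 0.11), and 4.13, 17.5-fold, without replicate 7 (limma adjusted p = 0.000629).

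Among the activating receptors that pair with the Fc receptor gamma chain, Clec4e had the largest difference. Clec4e, which senses mycobacterial glycolipid and the nuclear protein SAP130 released from dying cells, was 6.26, 6.59, 5.62 and 5.67 on the 8-week arrays. On the 28-week arrays it was 8.52, 6.20, 8.59 and 7.48. Replicates 6, 8 and 9 exceeded every young mouse and replicate 7 did not. The log2 difference was 1.66 ± 0.48 SE, 3.17-fold (limma adjusted p = 0.13), and 2.16 without replicate 7 (limma adjusted p = 0.00483).

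Clec4n, which encodes the mannan receptor Dectin-2, was 3.83, 4.27, 4.91 and 4.31 on the 8-week arrays and 5.93, 4.32, 5.27 and 5.46 on the 28-week arrays. Again only replicate 7 of the old mice overlapped the young ones. Its log2 difference was 0.92 ± 0.33 SE (limma adjusted p = 0.217), and 1.22 without replicate 7 (limma adjusted p = 0.0266). Clec4d, whose product forms a complex with Mincle, was 3.61, 4.28, 4.62 and 4.67 on the 8-week arrays and 5.44, 4.08, 5.90 and 4.75 on the 28-week arrays. Replicate 9 was barely above the highest young mouse. The log2 difference of Clec4d was 0.75 ± 0.38 SE (limma adjusted p = 0.399), and at 1.07 without replicate 7 it did not pass either (limma adjusted p = 0.103). Both probes were dim, with 8-week means at the 25.2 percentile of all probes for Clec4n and the 24.5 percentile for Clec4d. RMA compresses differences most at such levels and gives no detection call, and the effect of that on these 2 differences was not tested.

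Clec10a and Clec9a had the smallest differences. Clec10a, the sugar-binding receptor MGL1 of macrophages and dendritic cells, was 5.77, 5.39, 5.45 and 5.95 on the 8-week arrays and 6.18, 5.65, 6.10 and 5.93 on the 28-week arrays. The age groups overlapped, with replicates 7 and 9 inside the young range. Its log2 difference was 0.33 with a 95% interval from -0.07 to 0.72 (limma adjusted p = 0.452), and 0.43 without replicate 7 (limma adjusted p = 0.266). This probe was not dim, at the 45.7 percentile of the 8-week means.

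Clec9a was 3.10, 3.59, 3.57 and 3.89 on the 8-week arrays and 3.66, 3.19, 3.65 and 4.31 on the 28-week arrays. Only replicate 9 exceeded the highest young mouse. The log2 difference of 0.17 had a 95% interval from -0.38 to 0.71 (limma adjusted p = 0.835). Its sign turned to -0.11 with arrays centred on reference genes and to -0.04 without 28-week replicate 9. The Clec9a probe was at the 9.2 percentile of all probes at 8 weeks and the 12.7 percentile at 28 weeks, a level at which RMA gives no detection call.

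**Figure D2:**
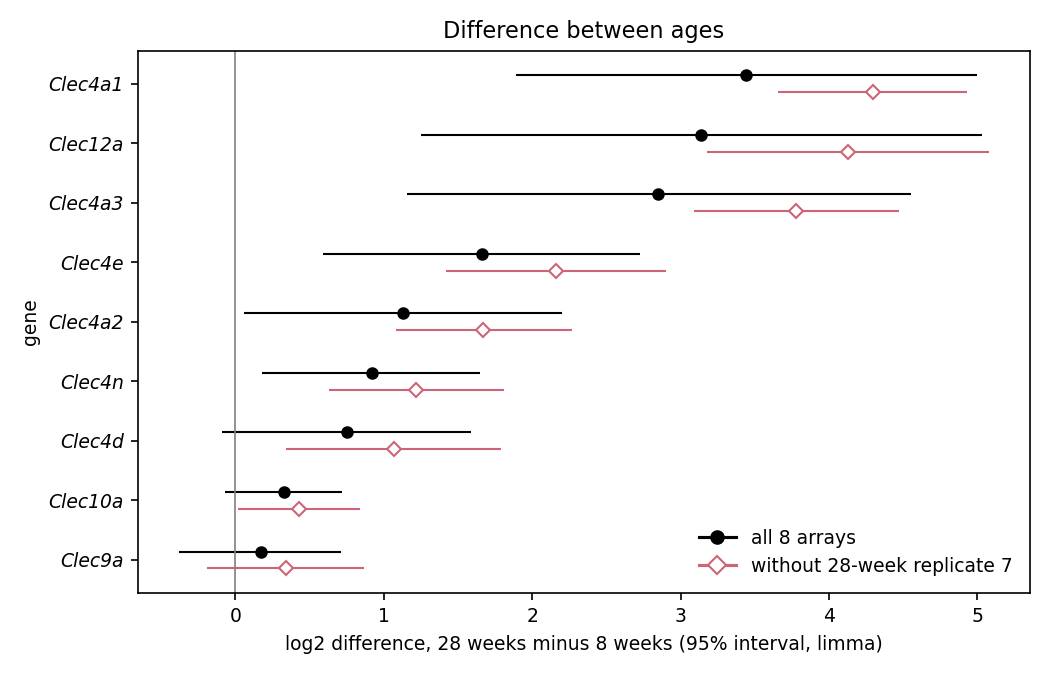
Log2 difference, 28 weeks minus 8 weeks, of each lectin receptor gene with its 95% interval from limma, with all 8 arrays (black) and without 28-week replicate 7 (open red diamonds). Leaving out that array moved every estimate up, from 3.44 to 4.30 for Clec4a1, and narrowed the intervals of the genes with larger differences.

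With replicate 7 included, the 28-week mice differed more among themselves than the young mice did for most of these genes. For 7 of the 9 genes the SD at 28 weeks was over 1.5 times that at 8 weeks. The share of all probes that do so was not computed. Over replicates 6, 8 and 9 alone the SD stayed larger for Clec4a1 (0.60 against 0.29 at 8 weeks) and Clec4a3 (0.71 against 0.27). It was smaller than at 8 weeks for Clec4a2 (0.11 against 0.52), Clec4n (0.34 against 0.44) and Clec10a (0.13 against 0.27). Replicate 7 was the lowest of the 28-week arrays for all 9 genes, and replicates 6, 8 and 9 all exceeded every 8-week array for 7 genes. Without replicate 7, 9.47% of all probes had all 28-week arrays above all 8-week arrays. The median of the 9 genes, as a deviation from each gene's 8-week mean, was 1.80, 1.61 and 1.45 in replicates 6, 8 and 9 and 0.01 in replicate 7, and it ran from -0.25 to 0.18 in the 8-week mice. Replicate 6 was the highest 28-week mouse for 6 of the 9 genes. The 3 exceptions were Clec4d and Clec4e, highest in replicate 8, and Clec9a, highest in replicate 9.

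Macrophage and monocyte markers moved with the lectins. Of 16 measured markers 15 had a positive difference, none passed the threshold with all arrays (limma, all 16 at an unadjusted p under 0.05) and 14 were called higher without replicate 7. Their median difference was 2.33, and the mean over the list ranged from 6.57 to 7.11 on the 8-week arrays and from 6.94 to 10.15 on the 28-week arrays, lowest in replicate 7. Lyz2 (lysozyme), C1qa (a complement component made by macrophages) and Cd14 (the lipopolysaccharide co-receptor) had the smallest p, with log2 differences of 4.54, 2.52 and 2.63 (limma adjusted p from 0.0607 to 0.0923). Mertk, a receptor for dead-cell uptake, was the only negative one, at -0.45. The pan-leukocyte gene Ptprc had a difference of 1.70 (limma adjusted p = 0.215). The part of cell numbers in the lectin differences was not tested.

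To set each lectin beside these markers, the mean of the 16 was subtracted from its value on every array. The difference between the ages was then positive for 3 genes, at 1.26 for Clec4a1, 0.95 for Clec12a and 0.67 for Clec4a3, and negative for the other 6, from -0.52 for Clec4e to -2.02 for Clec9a. Clec4a1 relative to the markers was -1.59 ± 0.38 at 8 weeks and -0.33 ± 0.38 at 28 weeks (SD, n = 4 each, exact two-sided permutation p = 0.0286, adjusted p = 0.11 over the 9). Clec4a2 went the opposite way relative to the markers, from -2.38 ± 0.58 to -3.43 ± 0.38, with the same exact p = 0.0286 and adjusted p = 0.11. Its own log2 difference was positive, at 1.13, and thus smaller than the median of the markers. The Clec4a2 probe was dim, at the 27.5 percentile of the 8-week means, where RMA compresses differences. Clec4n, Clec4d and Clec9a were dimmer still, at 25.2, 24.5 and 9.2, while Clec10a and Clec4e were at 45.7 and 50.3. Clec9a itself had a difference of 0.17, so its value of -2.02 mostly restates the rise of the marker mean. The part of dim probes in these falls against the markers was not tested. For Clec4a1 and Clec4a2 the 4 arrays of one age lay apart from the 4 of the other, replicate 7 included. These 2 had an exact p under 0.05 and none of the 9 passed after adjustment, for which at least 6 would need the smallest possible p of 0.0286 in this exact test. With Ptprc in place of the marker mean Clec4a1, Clec12a and Clec4a3 were again positive, at 1.75, 1.44 and 1.16, and Clec4e was at -0.03, with the lowest adjusted p at 0.171 (exact permutation test). Clec4a1 kept its separation there (exact p = 0.0286), while Clec4a2, at -0.57, did not (exact p = 0.229).

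**Figure D3:**
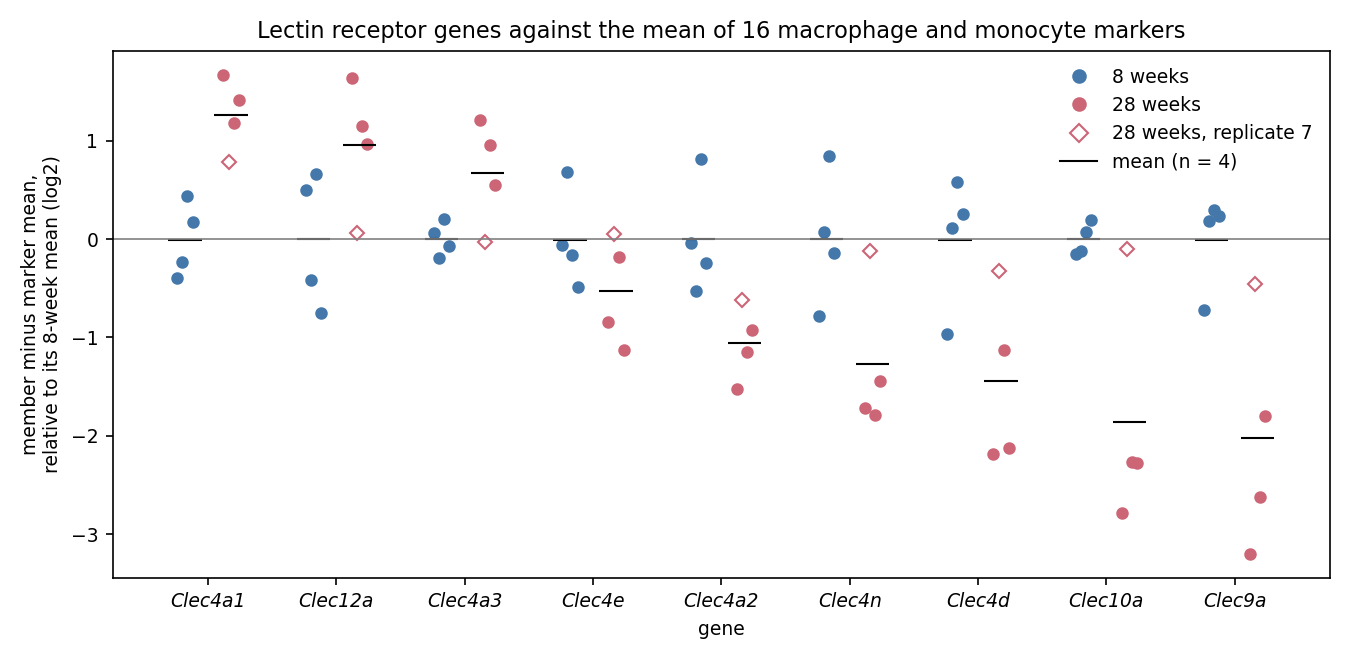
Each lectin receptor gene minus the mean of 16 macrophage and monocyte markers on the same array, shown as the deviation from its 8-week mean in log2 units, with 8-week mice in blue, 28-week mice in red and group means as lines. Clec4a1 lies above and Clec4a2 below the young mice on all 28-week arrays, while for the other 7 genes the ages overlap.

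Markers of other myeloid cells differed less. Of 8 markers of cross-presenting dendritic cells 5 were positive, with a median of 0.24, and none passed the threshold (limma, 3 at an unadjusted p under 0.05). The mean over that list ranged from 4.66 to 4.93 at 8 weeks and from 4.74 to 5.27 at 28 weeks. The chemokine receptor gene Xcr1 had a difference of 1.19 (limma adjusted p = 0.127, and 0.0146 without replicate 7, the only 1 of the 8 then called) and Batf3, the transcription factor of these cells, one of -0.04, beside 0.17 for Clec9a. Tlr11 was at 0.40 and Itgae at -0.44. Among 11 markers of dendritic cells in general 8 were positive and none passed (limma, 3 at an unadjusted p under 0.05), the median being 0.24 and the list mean 6.03 to 6.39 at 8 weeks and 6.36 to 6.55 at 28 weeks. Fscn1 and Sirpa were at 0.73 and 0.56 and were the 2 called higher without replicate 7, Cd83 was at 0.71, and Mgl2, the closest relative of Clec10a, at 0.31. Mgl2 and Cd209a also stand in the list of other lectins.

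Neutrophils also express Clec4d, Clec4e and Clec12a, and most of their defining markers were dim at both ages. The mean over 11 neutrophil markers was 3.77 to 4.07 at 8 weeks and 3.99 to 4.12 at 28 weeks, with a median difference of 0.06. None passed with all arrays, and Csf3r alone had an unadjusted p under 0.05 (limma). S100a8 was 3.41 ± 0.02 at 8 weeks and 3.54 ± 0.19 at 28 weeks (n = 4 each, limma adjusted p = 0.736), S100a9 was at a difference of 0.12 and Ngp at 0.17. Csf3r, the receptor of the granulocyte growth factor, was at 1.30 (limma adjusted p = 0.0853), and without replicate 7 it was the 1 neutrophil marker called higher, at 1.58 (limma adjusted p = 0.00702). No lymphoid marker passed with all arrays, at 4 and 3 unadjusted p under 0.05 (limma), while without replicate 7 there were 3 T and NK cell markers called higher, Cd3e, Cd3g and Nkg7, and 1 B and plasma cell marker, Jchain. Positive differences were found for 7 of 8 T and NK cell markers (median 0.45, list mean 4.27 to 4.65 at 8 weeks and 4.55 to 5.20 at 28 weeks) and for all 6 B and plasma cell markers (median 0.76, 3.62 to 3.79 and 4.10 to 6.41). Cd3e, Cd3d and Cd3g were at 1.08, 0.42 and 0.67, and Jchain, Cd79a and Cd79b at 4.77, 0.96 and 0.96. Replicate 7 was not like a young mouse for Jchain, at 7.52 against 3.49 to 5.08 on the 8-week arrays and 5.83 on replicate 9.

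The signalling chain downstream of the activating receptors was measured through 23 genes. Of these 18 had a positive difference, none passed with all arrays (limma, 10 at an unadjusted p under 0.05), and 8 were called higher without replicate 7. Fcer1g, the shared Fc receptor gamma chain, was 6.34 ± 0.12 at 8 weeks and 10.34 ± 2.39 at 28 weeks (n = 4 each, limma adjusted p = 0.0777). It was 6.92 on 28-week replicate 7 and at least 10.77 on the other 28-week arrays. Rel and Rela, which encode NF-kappa-B subunits, had differences of 1.59 and 0.78 (limma adjusted p = 0.0554 and 0.0752). Tyrobp, the adaptor DAP12, was at 2.22 and the kinase gene Syk at 1.02. Card9, the adaptor between Syk and NF-kappa-B, was 6.68 ± 0.28 at 8 weeks and 6.84 ± 0.20 at 28 weeks (n = 4 each, limma adjusted p = 0.746). The list median was 0.29.

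Among 8 phosphatases and negative regulators that act on the inhibitory side 7 had a positive difference, with a median of 0.27, and none passed with or without replicate 7 (limma, 2 at an unadjusted p under 0.05 with all arrays). Ptpn6, which encodes SHP-1, was at 1.01 (limma adjusted p = 0.306), Ptpn11, which encodes SHP-2, was at -0.01, the ubiquitin ligase gene Cblb was at 0.59 (limma adjusted p = 0.161) and the lipid phosphatase gene Inpp5d at 0.48.

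Of 19 genes known to be induced through Syk and CARD9, Ptgs2, which encodes cyclooxygenase 2, was the only one that passed with all arrays, and 7 were called higher without 28-week replicate 7. It rose from 5.04 ± 0.18 to 6.12 ± 0.28 (n = 4 each, log2 difference 1.07, limma adjusted p = 0.0309), with all 28-week arrays above all 8-week arrays. On replicate 7 it was 5.81, between the young mice and the other old ones. The chemokine genes Ccl2 and Ccl3 were at 1.17 and 1.52 (limma adjusted p = 0.0754 and 0.106), and Il1b, the gene of interleukin 1 beta, at 1.66 (limma adjusted p = 0.255). These 3 were among the 7 (limma adjusted p = 0.00199, 0.000566 and 0.00672 without replicate 7). In this list 14 of 19 differences were positive and the median was 0.12. These genes are induced by many other receptors too.

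Host proteins described as ligands of these receptors were measured through 7 genes, of which 6 had a positive difference, with a median of 1.06. With all arrays 1 passed, and 5 were called higher without 28-week replicate 7. Anxa5, an annexin that binds Dectin-1, rose from 12.17 ± 0.30 to 13.23 ± 0.31 (n = 4 each, limma adjusted p = 0.044). Anxa1, which encodes another annexin, was at 1.54 and Actb, which encodes the actin that DNGR-1 binds, at 0.85 (limma adjusted p = 0.0897 and 0.054, and 0.000226 and 0.00476 without replicate 7). Sap130, the gene of the Mincle ligand, did not share this, with a difference of -0.04 (limma adjusted p = 0.952).

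A list of other C-type lectin receptors had smaller differences as a group. Of 30 measured genes 21 were positive, with a median of 0.09, none passed with all arrays (limma, 7 at an unadjusted p under 0.05) and 7 were called higher without replicate 7. Cd69, a lymphocyte activation gene, had a difference of 1.28 (limma adjusted p = 0.0576), Clec2d, a ligand of an NK cell receptor, one of 0.68 (limma adjusted p = 0.0624) and the scavenger receptor gene Colec12 one of 1.01 (limma adjusted p = 0.139). All 3 had every 28-week array above every 8-week array. The macrophage mannose receptor gene Mrc1 was 8.83 ± 0.23 at 8 weeks and 9.68 ± 1.17 at 28 weeks (n = 4 each, limma adjusted p = 0.455), with 7.95 on replicate 7. The list is not complete, as Cd72, which also encodes a receptor with a C-type lectin domain, was not in it. Cd72 had a difference of 2.94 (limma adjusted p = 0.0865), larger than that of most lectins described here. The difference between the lectin groups was not tested.

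The differences did not follow the order of the genes along the chromosome. In RefSeq order on GRCm38.p6 the DCIR cluster runs Clec4a1, Clec4a3, Clec4a4, Clec4b1, Clec4a2, Clec4b2, Clec4n, Clec4d and Clec4e, with log2 differences of 3.44, 2.85, -0.28, 0.92, 1.13, 0.05, 0.92, 0.75 and 1.66. Genes near 0 thus lay between genes with large differences. The flanking gene Necap1 was at 0.07, the complement C3a receptor gene C3ar1 beyond it at 1.78, and the vomeronasal receptor genes on the far side between -0.28 and 0.14. In the Dectin cluster Clec12a, at 3.14, was followed by Clec12b at -0.19, Clec1b at 0.04, Clec9a at 0.17 and Clec1a, a gene of endothelial cells, at -0.17. Before Clec12a lay Clec2d, Cd69 and Clec2m, at 0.68, 1.28 and 0.01. Some genes near 0 had dim probes, with 8-week means at the 10.4 percentile for Clec12b, 9.2 for Clec9a and 30.1 for Clec4a4. Clec1b and Clec1a were brighter, at 44.9 and 67.4. Whether a dim probe hid a difference was not tested.

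**Figure D4:**
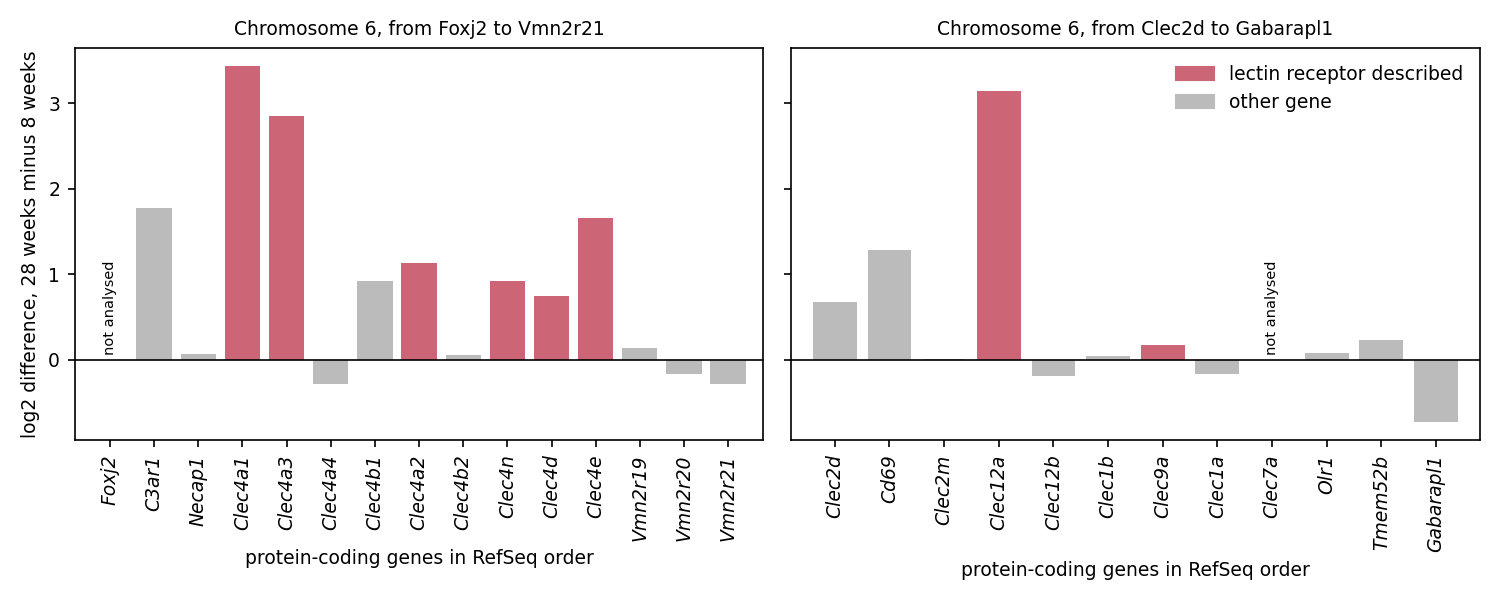
Mean log2 difference, 28 weeks minus 8 weeks, of protein-coding genes in their RefSeq order along the 2 lectin clusters of chromosome 6, with 3 flanking genes on each side. Lectin receptors described here are red and other genes grey. Clec4a1 (3.44), the adjacent Clec4a3 (2.85) and Clec12a (3.14) have the highest bars. Necap1 (0.07), Clec4a4 (-0.28), Clec2m (0.01) and Clec12b (-0.19) next to them are low, while C3ar1 (1.78) and Cd69 (1.28) lie 1 gene further out. Foxj2 and Clec7a were not analysed.

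For the 5 genes with a log2 difference of at least 1, the genes of most similar profile were sought among 18535 other named genes. Likeness was the root mean square difference over the 8 arrays between the deviations of both genes from their own 8-week means. The closest to Clec4a1 were Cybb, the catalytic subunit of the phagocyte oxidase, at 0.40 and C1qb, a complement component, at 0.43. Cd72, a B cell and myeloid co-receptor gene, was closest to Clec4a3 (0.25) and to Clec12a (0.33), followed by Mpeg1, the macrophage perforin gene, at 0.28 for Clec4a3 and the chemokine gene Ccl12 at 0.43 for Clec12a. For Clec4e they were Pik3cg, a leukocyte lipid kinase gene, and the caspase gene Casp4, at 0.25 each. For Clec4a2 they were the interferon-inducible GTPase gene Gvin1 at 0.27 and Pqlc3 at 0.28. As an example, Cd72 was 7.18, 6.73, 7.31 and 6.54 on the 8-week arrays and 11.42, 7.31, 10.63 and 10.14 on the 28-week arrays. It too was low only in replicate 7 among the old mice. These likenesses rest on the same 8 arrays and mostly on the contrast of replicates 6, 8 and 9 with the other 5 mice.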

How the data were processed

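Per the labels' protocols, total RNA was extracted with Trizol and hybridized as biotinylated cRNA. The authors deposited values on a log scale, taken here as log2 although no base is named, and the submitters' processing notes name RMA without version or settings. RMA gives no detection call, and the number of arrays limits the precision. Scan dates were not used here, and batches were not examined. Each array was taken as 1 mouse from the design text.

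Probes carried 1 gene symbol in 88.1% of 22206 cases. The brightest probe stood for a gene with several. Differences were tested with limma 3.58.1 in R 4.3.3 (lmFit, eBayes) without a filter, adjusted by Benjamini-Hochberg over all probes, at a threshold of 0.05. The code was tested on simulated data. Exact tests enumerated 70 arrangements of the mice. The members and the other 13 gene lists were chosen with earlier results of these data known. Genes were named as the members, the 3 smallest p of each list, any list gene past the threshold, and the 2 nearest profiles. Other genes named, such as neighbours, Card9, Mrc1, Mertk and Il1b, were chosen after their values were seen. Alternatives were other scalings, a filter on dim probes, 1 probe per gene, other variance moderation, array weights, a stricter threshold and arrays left out. Python 3.11.15, pandas 2.3.3 and matplotlib 3.10.9 made tables and figures.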

Additional observations from a re-analysis of the deposited data

Results flagged for a closer look

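In 45 named genes each age group of 4 arrays was searched for a lone array, defined by a gap to its nearest neighbour of more than 0.829 of the group's range (Dixon's 95% value), which chance gives in about 1 in 20 groups. Of 90 groups 9 met this, 4 of them through a low 28-week replicate 7. Clec4a2 was the only lectin described here among them, at 3.94 in that mouse against 6.03 to 6.25 in the other 28-week mice (0.905 of the range). The same mouse was alone for Rela (0.871), Xcr1 (0.875) and Inpp5d (0.834). The other 5 were Colec12 in 8-week replicate 3 (0.935), Itgae in 8-week replicate 4 (0.843) and 28-week replicate 6 (0.857), and Cd3d (0.852) and Slc34a1 (0.939) in 8-week replicate 1.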

How the results depend on the processing

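The number of lectin genes called higher was 0 with all arrays, 1 with arrays centred on reference genes, 1 without the dimmest 33% of probes, 1 with a single named probe per gene (Clec4a1 each time), 4 with array weights, and 6 without 28-week replicate 7 and 8-week replicate 1 together. Leaving out single arrays gave 0 to 6, with 6 without 28-week replicate 7 and 0 without any other. The count of lectin genes at least 2-fold higher with groups that do not overlap was 1, ranged from 1 to 7 with single arrays left out (2 without 8-week replicate 1 or 3, 7 without 28-week replicate 7), and was 6 without both arrays. The median difference of 1.13 ranged from 0.90 to 1.67 with single arrays left out and was 1.75 without both. Over all probes 215 were called, 798 on reference genes (111 higher and 687 lower, with the median over all probes at -0.29; the 11 reference genes themselves had a median difference of 0.23), 399 with trend and robust moderation, 873 with array weights (525 higher), 1384 without both arrays, 18 at an adjusted p under 0.01, and 25 to 1237 with single arrays left out. Clec9a turned to -0.11 on reference genes and -0.04 without 28-week replicate 9 (-0.04 to 0.34 with single arrays left out), while the other 8 genes kept their sign in every alternative run. Differences against the macrophage markers, or against Ptprc, kept their sign in the alternatives run. Centring an array cancels in that subtraction, and with so few arrays the adjusted exact p could hardly pass, so the missing calls say nothing about stability there. Over 16 alternatives the limma adjusted p ran from 8.42e-05 to 0.184 for Clec4a1, 0.000257 to 0.277 for Clec4a3, 0.00062 to 0.286 for Clec12a, 0.00483 to 0.305 for Clec4e, 0.00598 to 0.572 for Clec4a2, 0.0266 to 0.44 for Clec4n and 0.212 to 0.869 for Clec10a, and over 15 from 0.103 to 0.682 for Clec4d and 0.557 to 0.982 for Clec9a, which the filter on dim probes leaves out. No gene had a second probe to try. No paired analysis was possible because the ages were different mice with no stated link between them.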
